A study of Mus musculus with 11 samples.

Results

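The extracellular metalloproteinases and their tissue inhibitors were followed in mouse mammary epithelium during puberty. Genes were chosen by symbol, as all matrix metalloproteinases (Mmp), disintegrin metalloproteinases (Adam), disintegrin metalloproteinases with thrombospondin motifs (Adamts), ADAMTS-like genes (Adamtsl) and tissue inhibitors of metalloproteinases (Timp). This gave 85 of the 27179 gene identifiers counted, with 23 Mmp, 34 Adam, 19 Adamts, 5 Adamtsl and 4 Timp genes. Of these, 60 passed the filter on low counts and were tested, 15 had counts but did not pass, and 10 had no count in any library.

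RNA-seq was carried out on cells of female C57BL/6 mice aged 5 weeks that carried a GFP reporter of E-cadherin. Terminal end buds (TEBs), the growing tips of the ductal tree, and the ducts behind them were dissected separately. Epithelial cells that expressed CD29 and CD24 and lacked the lineage markers were then sorted into luminal cells, with bright GFP, and basal cells, with dim GFP. Each replicate pooled at least 2 mice, and the groups were basal duct (3 libraries), basal TEB (3), luminal duct (2, replicates 1 and 3) and luminal TEB (3).

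Metalloproteinases are zinc-dependent proteases that are made as inactive precursors and cut matrix or cell surface proteins. MMPs degrade collagens and other matrix proteins, ADAMs are membrane proteins of which several release growth factors and receptors from the cell surface, and ADAMTS proteases are secreted and cleave proteoglycans, procollagens or other matrix proteins, while ADAMTS-like proteins lack the protease domain. TIMPs block the active site, and TIMP2 also bridges MMP14 to the precursor of MMP2 during its activation. In the pubertal mammary gland, ADAM17 is known to release amphiregulin for ductal outgrowth, and MMP2 and MMP14 are known for roles in branching and invasion of the fat pad.

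Expression is in counts-per-million (CPM), with library sizes scaled by the TMM method. Levels of different genes are compared only as CPM per kilobase of gene. Tests were the quasi-likelihood tests of edgeR over 17370 genes, adjusted by Benjamini-Hochberg (edgeR FDR), and a gene was called at an FDR below 0.05. Each fold change is log2, with its standard error (SE). As nothing gives the pools beyond their number of mice, the tests measure the spread between these pooled libraries. In such sorted bulk samples, fewer cells that express a gene and less of its RNA per cell cannot be told apart.

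Library totals ranged from 28 to 49.2 M counts. Mitochondrial genes held 37.5% of counts in basal TEB replicate 1 and 28.5% in luminal duct replicate 3, against 4.34 to 17.8% in the others, and 39 of the 85 genes had a count in basal TEB replicate 1 against 46 to 63 elsewhere. The labelled lineages held to their markers, with 7 basal markers (Krt5, Krt14, Krt17, Trp63, Acta2, Myh11 and Oxtr) called higher in basal cells in both structures and 8 luminal markers called higher in luminal cells. The luminal duct libraries differed in other markers. The basal markers summed to 93.1 CPM in replicate 1 and 248.4 CPM in replicate 3, against 14.7 to 27.3 CPM in luminal TEB. The 8 fibroblast markers, led by Col3a1, Col1a2 and Col1a1 in replicate 3, summed to 9.83 and 265.7 CPM. Basal duct was uneven too. In its replicates 1 to 3, 5 endothelial markers (Pecam1, Cdh5, Kdr, Tie1 and Emcn) summed to 10.7, 188.9 and 15.9 CPM. The fibroblast markers summed to 431.7, 855.7 and 498.4 CPM there. Within basal cells, the 7 basal markers summed to 15550 to 19180 CPM in duct and 5342 to 8297 CPM in TEB. Of these, 4 were called lower and 0 higher in basal TEB by edgeR, with a median fold change of -1.96. Their part in the basal TEB-duct differences of the members was not tested.

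Members of all families were expressed, but each cell type drew on a few of them. A mean of 1 CPM or more was reached by 45 of the 85 genes in basal duct, 44 in basal TEB, 37 in luminal duct and 27 in luminal TEB. The luminal duct libraries were unlike in this. At 1 CPM or more, replicate 1 had 4 Mmp, 9 Adam, 9 Adamts, 1 Adamtsl and 4 Timp genes. Replicate 3 had 5, 12, 13, 4 and 3 of these. The luminal TEB libraries had 3 to 5, 7 to 9, 10 to 11, 1 and 3 to 4. Summed per kilobase, the Adamts genes were the highest family in basal cells, at 341.7 ± 49.6 CPM per kilobase in duct and 276.4 ± 10.2 in TEB (SD, n = 3). In luminal TEB the same sum was 18.0 ± 3.06 (SD, n = 3), and it was 27.5 ± 11.9 in luminal duct (SD, n = 2). The Adam sum ran the other way, at 96.3 ± 3.50 in basal duct and 94.7 ± 13.8 in basal TEB (SD, n = 3). Luminal cells had 167.0 ± 14.1 in duct (SD, n = 2) and 183.9 ± 7.86 in TEB (SD, n = 3). The heat map of the genes at 1 CPM or more in some group shows these blocks.

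**Figure D1:**
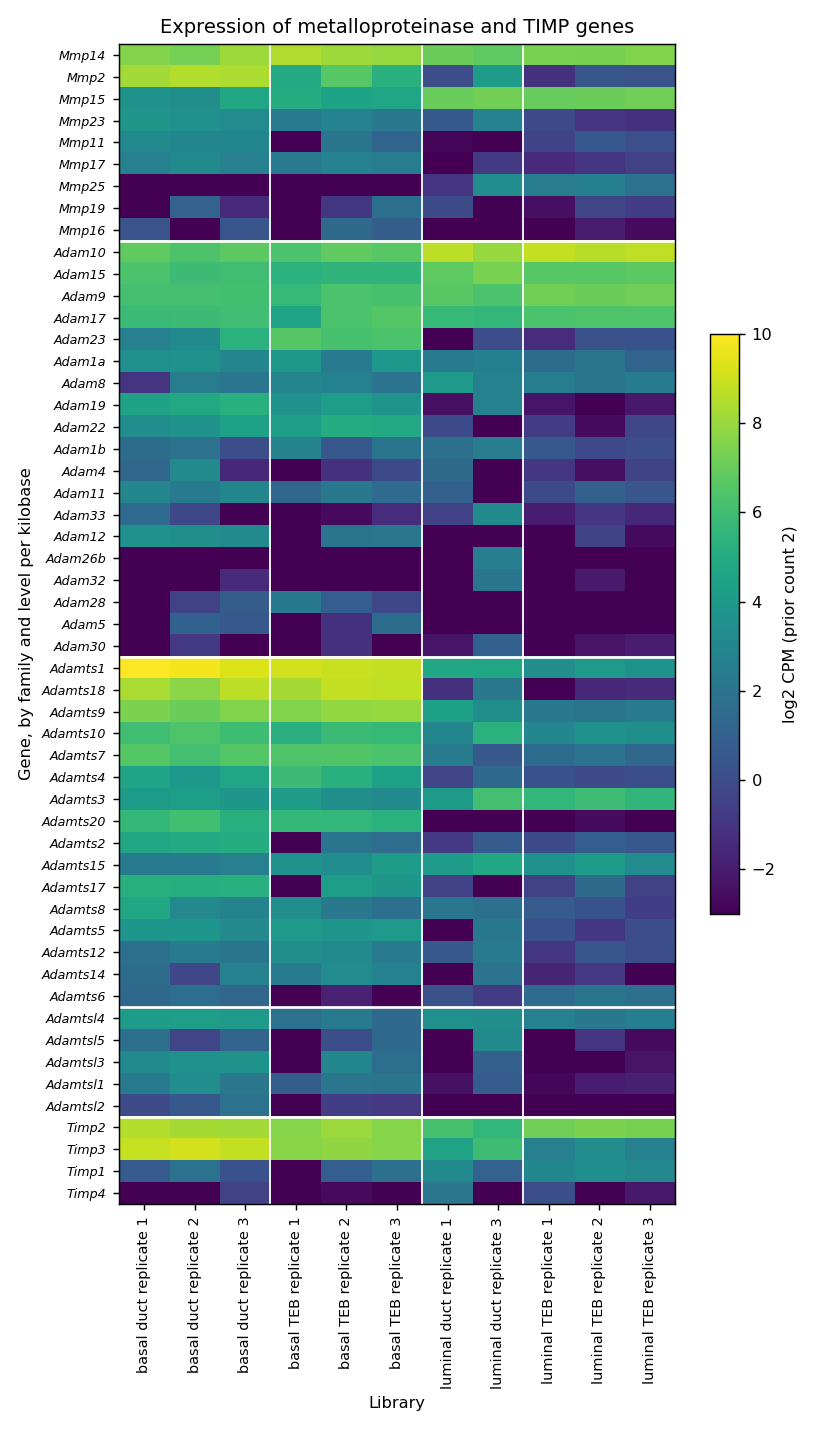
Level of the 53 genes with a mean of at least 1 CPM in some group (rows, by family and then by level per kilobase) in the 11 libraries (columns), as log2 CPM with a prior count of 2. Adamts1, Adamts18 and Adamts9 are bright in the 6 basal libraries, whereas Mmp15 and Adam10 are brighter in the 5 luminal libraries.

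The TIMPs were examined first, since they oppose the proteases. Timp2 and Timp3 made up nearly all TIMP transcript in basal cells, and they parted in luminal cells, where Timp2 was higher and Timp3 lower in TEBs than in ducts. Timp2 had 360.5, 306.8 and 295.1 CPM in basal duct and 196.4, 267.8 and 197.5 CPM in basal TEB. In luminal cells it had 75.3 and 48.9 CPM in duct and 143.4, 174.9 and 160.8 CPM in TEB. Every luminal TEB library was above both luminal duct libraries, and every basal TEB library below the basal duct libraries. The luminal rise was 1.36 (SE 0.23, edgeR FDR 0.0204), while the basal difference of -0.54 (SE 0.20, edgeR FDR 0.25) did not pass. The TEB-duct difference itself differed between the cell types by -1.90 (SE 0.31, edgeR FDR 0.0253).

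Timp3, an inhibitor that binds to the matrix and also blocks several ADAM and ADAMTS proteases, had the highest level of the TIMPs in basal duct, with 456.3, 560.1 and 452.9 CPM. It had 209.7, 228.9 and 199.03 CPM in basal TEB. Luminal duct held 24.5 and 62.3 CPM, and luminal TEB 6.37, 10.2 and 6.28 CPM. Within each cell type, no TEB library reached a duct library. The luminal fall was -2.51 (SE 0.34, edgeR FDR 0.00864), and the basal difference of -1.20 (SE 0.30, edgeR FDR 0.0896) did not pass. Without luminal duct replicate 3, which left 1 library in that group, the luminal fold change was -1.68. The basal difference passed when luminal duct replicate 1 (0.0139) or 3 (0.0136) was left out of the shared fit.

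Since the basal markers had counts in the luminal libraries, levels of the inhibitors were set against theirs. As a share of the mean in basal duct, the summed basal markers reached 0.528% in luminal duct replicate 1 and 1.41% in replicate 3, with single markers between 0.0439 and 3.25%. Timp3 reached 5.0 and 12.7%, and Timp2 23.5 and 15.3%. In luminal TEB, where the basal markers summed to 0.226 to 0.42% of their basal TEB level, Timp3 was at 2.95 to 4.8% and Timp2 at 65.0 to 79.3%. Both inhibitors stood above the share of the basal markers in every luminal library. The summed fibroblast markers were at 1.65 and 44.6% of their basal duct mean in luminal duct and at 4.11, 18.8 and 17.3% of their basal TEB mean in luminal TEB, above Timp3 in luminal duct replicate 3 and in luminal TEB. Of the 7 basal markers, 6 were called lower in luminal TEB than in luminal duct by edgeR. The part of these markers in the luminal fall of Timp3 was not tested. In the GENCODE annotation, exons of Syn3, on the opposite strand, overlap 21.3% of the exonic bases of Timp3. The counts used RefSeq exons, so the part of the Timp3 count left uncertain is not known. The kit does not mark strand, and Syn3 itself had 9 to 385 counts per library.

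Timp1, a secreted inhibitor, and Timp4 were low. Timp1 had 1.15 to 3.58 CPM in basal duct, 0 to 3.33 CPM in basal TEB, 9.29 and 2.06 CPM in luminal duct and 8.14 to 11.2 CPM in luminal TEB. Timp4 had 4.32 CPM in luminal duct replicate 1 and at most 1.05 CPM elsewhere. Neither was called in any comparison by edgeR. Of the 4 TIMPs, 2 were called between luminal TEB and duct and 0 between basal TEB and duct by edgeR (2 of 4 at an unadjusted p below 0.05, against 14.5% of all genes). By edgeR, 1.41% and 1.32% of all genes tested were called in these luminal and basal comparisons.

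**Figure D2:**
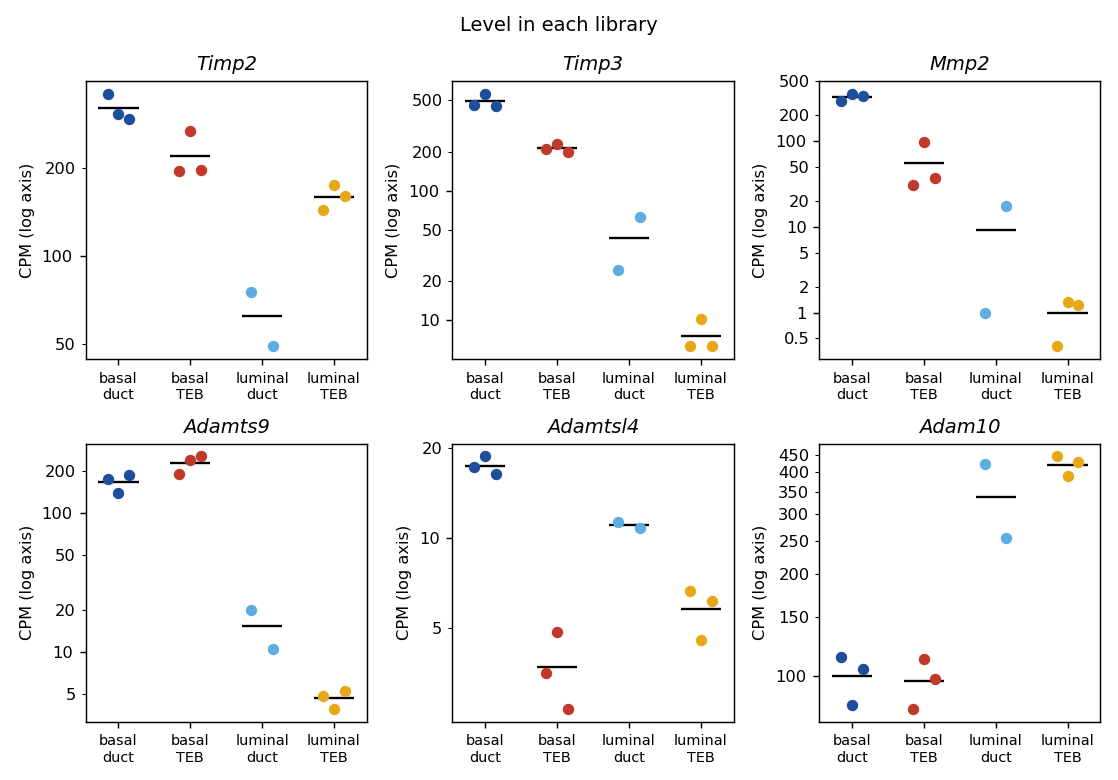
Level of 6 genes in each library, in CPM on a log axis, with points for libraries and a line for the mean of each group. Timp2 is higher and Timp3 lower in luminal TEB than in luminal duct with no overlap, and Adam10 is higher in every luminal library than in any basal one.

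Among the MMPs, the abundant genes were Mmp14, Mmp2 and Mmp15. Mmp14, a membrane collagenase, had 192.6, 154.4 and 272.6 CPM in basal duct and 348.3, 272.4 and 247.8 CPM in basal TEB. It had 134.5 and 108.9 CPM in luminal duct and 168.6, 162.3 and 184.1 CPM in luminal TEB. The basal duct and basal TEB ranges overlapped, and the TEB-duct fold changes of 0.49 in basal (SE 0.22, edgeR FDR 0.334) and 0.50 in luminal cells (SE 0.25, edgeR FDR 0.336) did not pass.

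Mmp2, the gelatinase that MMP14 and TIMP2 help to activate, had 297.1, 358.2 and 337.5 CPM in basal duct and 31.0, 97.4 and 37.5 CPM in basal TEB. Luminal duct held 1.00 and 17.6 CPM, and luminal TEB 0.404, 1.33 and 1.21 CPM. All basal TEB libraries were below all basal duct libraries, but the fold change of -2.58 (SE 0.76) did not pass the edgeR test (FDR 0.144). Omission of luminal duct replicate 1 or 3 from the shared fit changed the outcome of this test. The basal fold change itself stayed at -2.58. In luminal cells the fold change of -3.20 (edgeR FDR 0.0958) rested on luminal duct replicate 3. With replicate 1 left out, which left replicate 3 as the 1 luminal duct library, it was -4.14. The fibroblast markers, some of which are co-expressed with Mmp2 in stroma, summed to 431.7 to 855.7 CPM in basal duct and 226.9 to 413.8 CPM in basal TEB, with all 8 detected in 4 of these 6 libraries and Lum, Dpt and Fap at 0 in basal TEB replicate 1. Their part in the level of Mmp2 was not tested.

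The make-up of the MMP pool differed accordingly. Mmp2 took 47.2 to 60% of the summed Mmp level per kilobase in basal duct and 6.48 to 20.9% in basal TEB, where Mmp14 took 68.6 to 85.3%. In luminal cells Mmp14 took 46.3 to 66.7% and Mmp15, a membrane protease related to MMP14, 30.2 to 38.5%. The whole Mmp sum was 207.5 ± 23.9 CPM per kilobase in basal duct and 143.8 ± 19.6 in basal TEB (SD, n = 3). For luminal cells it was 87.5 ± 4.42 in duct (SD, n = 2) and 100.9 ± 5.56 in TEB (SD, n = 3).

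**Figure D3:**
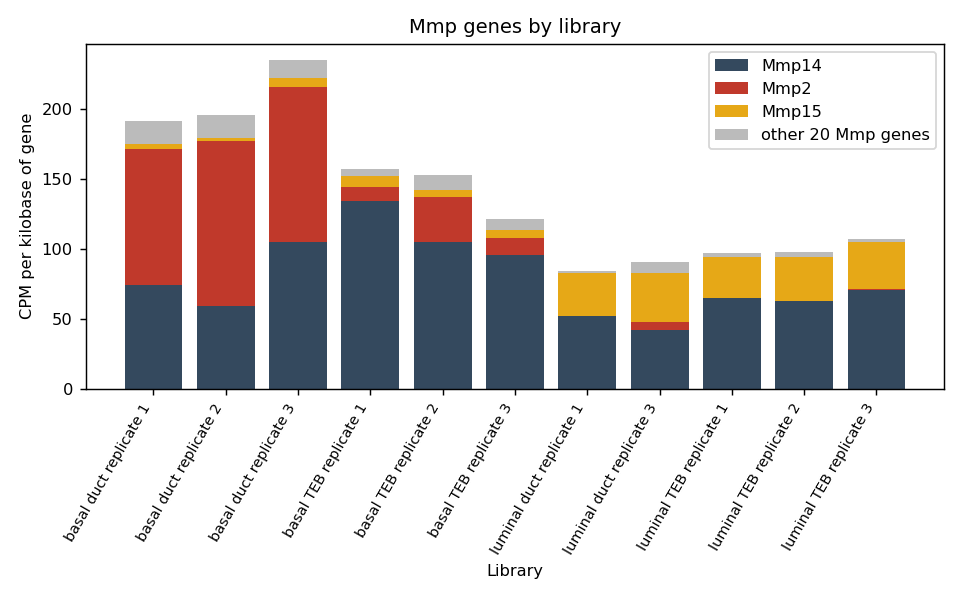
Summed level of the 23 Mmp genes in each library, in CPM per kilobase of gene (bars from 0), split into Mmp14, Mmp2, Mmp15 and the other 20 genes. Mmp2 is the largest segment in basal duct replicates 1 to 3, and Mmp15 is wide only in luminal libraries.

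Other MMPs were low or near absent. Mmp11, or stromelysin-3, had 7.64 to 9.26 CPM in basal duct and 0, 4.15 and 2.21 CPM in basal TEB, and Mmp23, a membrane-anchored MMP, had 9.47 to 14.7 and 4.59 to 6.78 CPM. In luminal cells, Mmp11 had 0.091 and 0.0411 CPM in duct and 0.74 to 1.45 CPM in TEB, and Mmp23 had 1.55 and 6.79 CPM in duct and 0.424 to 0.852 CPM in TEB. These ranges did not overlap between TEB and duct, and none passed the edgeR test (FDR of at least 0.0867). Without luminal duct replicate 1, which left 1 library in that group, the luminal fold change of Mmp23 was -3.56. The cluster of MMP genes on chromosome 9 (mm10, 7272514 to 7699585), which holds 10 genes including the stromelysin Mmp3, the matrilysin Mmp7 and the collagenase Mmp13, gathered 258 counts over all 11 libraries. No library held more than 43 counts of one of them, 2 of the genes had none, and no level exceeded 0.905 CPM. Mmp9, the other gelatinase, had at most 1.18 CPM. At totals of 28 to 49.2 M, transcripts of these genes were thus barely detectable in the sorted epithelial cells.

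Among the ADAMs, the widely expressed members Adam10, Adam15, Adam9 and Adam17 had the highest levels per kilobase. Adam10, the sheddase of Notch and E-cadherin, had 113.9, 82.1 and 105.3 CPM in basal duct and 80.1, 112.2 and 98.3 CPM in basal TEB. It had 421.8 and 255.3 CPM in luminal duct and 444.5, 389.6 and 426.4 CPM in luminal TEB. Adam17 had 24.4 to 96.7 CPM over all libraries, with its lowest value in basal TEB replicate 1, and was called in no comparison. Adam15 had 79.4, 60.2 and 65.3 CPM in basal duct and 39.4, 43.3 and 43.3 CPM in basal TEB, without overlap, and its fold change of -0.70 (SE 0.18) did not pass (edgeR FDR 0.102) unless luminal duct replicate 1 (0.0407) or 3 (0.0433) was left out. No ADAM was called between TEBs and ducts by edgeR, while 3 of 19 in basal and 4 of 19 in luminal cells had an unadjusted p below 0.05, against 14.5% and 16.6% of all genes.

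Adam23, which lacks a functional protease site and binds integrins, varied widely within basal duct. It had 6.19, 8.95 and 39.4 CPM there and 96.1, 74.2 and 79.7 CPM in basal TEB. Its fold change of 2.20 (SE 0.82, edgeR FDR 0.254) was not called, although all basal TEB libraries were above all basal duct libraries. Adam12, a membrane protease also found in stroma and muscle, had 8.90 to 11.8 CPM in basal duct and 0, 4.17 and 4.23 CPM in basal TEB (edgeR FDR 0.608). Adam33 and Adam1b, the not-called ADAMs with the widest non-overlapping TEB-duct difference among those with a mean of at least 1 CPM in a luminal group, had 0.66 and 9.29 CPM and 3.46 and 5.39 CPM in luminal duct, against 0.202 to 0.476 and 0.857 to 1.43 CPM in luminal TEB. Neither passed the edgeR test (FDR 0.351 and 0.33). Adam1b shares 30.9% of its 80-base words with Adam1a, so the counts of this pair are uncertain.

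The ADAMTS proteases were led by Adamts1, Adamts18, Adamts9 and Adamts10. Adamts1, which cleaves versican and other proteoglycans, had the highest level per kilobase of the 85 genes in basal duct, with 1128, 859.2 and 640.0 CPM in basal duct and 559.4, 473.3 and 448.9 CPM in basal TEB. It had 27.1 and 25.6 CPM in luminal duct and 10.9, 16.1 and 12.6 CPM in luminal TEB. Duct and TEB ranges did not overlap in either cell type, but the fold changes of -0.83 in basal (SE 0.22, edgeR FDR 0.114) and -1.0 in luminal cells (SE 0.25, edgeR FDR 0.075) did not pass. Without basal duct replicate 3, the edgeR FDR of the basal fold change was 0.0483.

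Adamts9, another versican-cleaving protease, was the 1 ADAMTS gene called between TEBs and ducts by edgeR. In luminal cells it had 19.9 and 10.6 CPM in duct and 4.80, 3.89 and 5.28 CPM in TEB, a fall of -1.72 (SE 0.27, edgeR FDR 0.0129). In basal cells it had 173.6, 137.2 and 186.3 CPM in duct and 188.3, 239.1 and 253.4 CPM in TEB, and the difference of 0.45 (SE 0.24, edgeR FDR 0.406) did not pass. The 2 cell types differed in the TEB-duct change by 2.17 (SE 0.36, edgeR FDR 0.0273). Luminal duct held 12 and 6.38% of the basal duct mean, above the share of the summed basal markers given for Timp3. Luminal TEB held 2.11, 1.71 and 2.33% of the basal TEB mean. That is above the summed basal markers there, but within the range of the basal marker Oxtr (2.83, 1.98 and 1.4%). The other basal markers were lower. The part of these markers in the luminal fall of Adamts9 was not tested. In the GENCODE annotation, the exons of A730049H05Rik cover 9.18% of those of Adamts9, and A730049H05Rik had at most 15 counts in a library.

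Other ADAMTS members differed between basal TEB and basal duct without overlap but were not called. The procollagen peptidase Adamts2 had 28, 30.8 and 32.5 CPM in duct and 0, 4.15 and 3.05 CPM in TEB, a difference of -3.64 (SE 1.07, edgeR FDR 0.144). Without basal TEB replicate 1, the library with the most mitochondrial counts, the difference was -3.07 (edgeR FDR 0.0357). Adamts6 had 2.41 to 3.16 CPM in basal duct and 0 to 0.232 CPM in basal TEB, against 1.12 and 0.576 CPM in luminal duct and 2.89 to 4.13 CPM in luminal TEB. Adamts15, a versican-cleaving member, had 4.89 to 6.21 CPM in basal duct and 10.2 to 18.4 CPM in basal TEB (1.3, SE 0.40, edgeR FDR 0.165). Adamts18 was kept in basal TEB, at 308.3 to 441.4 CPM, and its luminal difference of -3.31 (edgeR FDR 0.0718) rested on luminal duct replicate 3 with 4.48 CPM, since replicate 1 had 0.41 CPM and luminal TEB 0.0448 to 0.327 CPM. Without replicate 1, which left replicate 3 as the 1 luminal duct library, it was -4.25.

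Adamtsl4, an ADAMTS-like protein that binds fibrillin, was the 1 of the 60 tested members called between basal TEB and basal duct by edgeR. It had 17.3, 18.8 and 16.4 CPM in basal duct and 3.52, 4.84 and 2.66 CPM in basal TEB, a fall of -2.25 (SE 0.44, edgeR FDR 0.0299). Luminal cells had 11.4 and 10.8 CPM in duct and 6.61, 4.53 and 6.13 CPM in TEB, lower without overlap but not called (-0.94, SE 0.46, edgeR FDR 0.326). The difference between the cell types was not called either (-1.31, edgeR FDR 0.361). Adamtsl3, Adamtsl1 and Adamtsl2 had at most 12.5 CPM, and Adamtsl2 had 0.938 to 3.51 CPM in basal duct and at most 0.59 CPM in basal TEB, without overlap (edgeR FDR 0.583). Adamtsl5 had 9.05 CPM in luminal duct replicate 3 and at most 3.49 CPM elsewhere.

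In all, edgeR called 1 of the 60 tested members in basal cells (0 higher, 1 lower, 1.67%) and 3 in luminal cells (1 higher, 2 lower, 5%) between TEBs and ducts. The shares of all genes were 1.32% in basal cells (0.167% higher, 1.16% lower) and 1.41% in luminal cells (0.639% higher, 0.771% lower). In each cell type, 14 of the 60 members (23.3%) had an unadjusted p below 0.05, against 14.5% of all genes in basal and 16.6% in luminal cells. The median fold change of the tested members was -0.39 in basal and -0.08 in luminal cells, against -0.03 and 0.04 over all genes tested. The difference between the cell types was called for 2 members, Timp2 and Adamts9 (3.33%, against 0.443% of all genes, 0.0806% higher and 0.363% lower).

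These TEB-duct calls were sensitive to single libraries. Adamtsl4 was not called without any 1 of basal duct replicate 1 (edgeR FDR 0.102), 2 (0.108) or 3 (0.0612), basal TEB replicate 3 (0.14) or luminal TEB replicate 1 (0.0656), 2 (0.0592) or 3 (0.0708). Timp2 in luminal cells was lost when luminal TEB replicate 1 (0.0695), 2 (0.0765) or 3 (0.0921) or luminal duct replicate 3 (0.081) was left out, and Adamts9 without luminal TEB replicate 1 (0.0638), 2 (0.0576) or 3 (0.0568). For the difference between cell types, Timp2 was lost without basal duct replicate 1 (0.0848), basal TEB replicate 3 (0.0782) or luminal TEB replicate 1 (0.0711), 2 (0.0775) or 3 (0.0921). Adamts9 was lost there without basal duct replicate 1 (0.0942) or 2 (0.0627), basal TEB replicate 3 (0.0836) or luminal TEB replicate 1 (0.0784), 2 (0.087) or 3 (0.0797). Timp3 in luminal cells was called whichever basal or luminal TEB library was left out. Without luminal duct replicate 3 its fold change was -1.68, in a fit with 1 luminal duct library.

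Basal and luminal cells were compared next, within ducts and within TEBs. The difference between lineages was broader than that between structures. In ducts, edgeR called 23 of the 60 tested members (38.3%, against 22.3% of all genes), of which 18 were higher and 5 lower in basal cells (12.6% and 9.71% of all genes). In TEBs it called 28 (46.7%, against 25.1%), of which 21 were higher and 7 lower (13.2% and 11.8% of all genes). The median fold change, basal over luminal, was 1.81 in ducts and 2.06 in TEBs, against 0.08 and 0.04 over all genes tested. Higher in basal cells in both structures were 12 members, Adam22, Adam23, Adamts1, Adamts4, Adamts7, Adamts9, Adamts18, Adamts20, Mmp2, Mmp14, Mmp17 and Timp3, and lower in both were 4, Adam10, Adam15, Mmp15 and Mmp25. How many of all genes were called in both structures was not counted.

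Of the 4 TIMPs, edgeR called 2 higher and 0 lower in basal cells in ducts, and 1 higher and 0 lower in TEBs. Timp3 was higher by 3.50 in ducts (SE 0.39, edgeR FDR 5.38e-05) and 4.80 in TEBs (SE 0.35, edgeR FDR 1.52e-06). Timp2 was higher by 2.37 in ducts (SE 0.25, edgeR FDR 3.24e-05), while its difference of 0.47 in TEBs (SE 0.20) did not pass (edgeR FDR 0.116). Without luminal duct replicate 3, the difference of Timp3 in ducts was 4.32. Timp1 was not called, at 0 to 3.33 CPM in basal TEB and 8.14 to 11.2 CPM in luminal TEB.

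Of the 18 tested ADAMTS genes, 8 were called higher and 1 lower in basal cells in ducts, and 10 higher and 2 lower in TEBs. Adamts1 was higher by 5.06 in ducts (SE 0.32, edgeR FDR 1.47e-06) and 5.23 in TEBs (SE 0.27, edgeR FDR 1.73e-07). Adamts18 had 215.7 to 414.4 CPM in basal duct and at most 4.48 CPM in luminal cells, a difference of 7.09 in ducts (SE 0.90) and 10.71 in TEBs (SE 0.89), with edgeR FDR of 0.000143 and 3.97e-06. In ducts, omission of luminal duct replicate 1 gave 6.14, and omission of replicate 3 gave 9.58. Adamts20 had 36.9 to 66.6 CPM in basal cells, whereas the luminal libraries together held 2 counts in duct and 7 in TEB. Adamts7, which cleaves cartilage oligomeric matrix protein, had 68.4 to 93.8 CPM in basal and 1.48 to 5.14 CPM in luminal cells, and the aggrecanase Adamts4 15 to 61.1 CPM in basal and 0.774 to 2.67 CPM in luminal cells.

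The ADAMTS genes higher in luminal cells were fewer. Adamts3, a procollagen peptidase, was lower in basal TEB by 2.07 on the log2 scale (-2.07, SE 0.44, edgeR FDR 0.00418), with 9.21 to 17.3 CPM in basal and 47.4 to 61.4 CPM in luminal TEB. The luminal duct libraries held 17.1 and 69.3 CPM, and no call was made in ducts. Adamts6 was lower in basal TEB (-5.07, SE 1.40, edgeR FDR 0.0188), where basal TEB replicate 2 held 11 of the 12 basal counts, and Adamts15 was lower in basal duct (-2.01, SE 0.44, edgeR FDR 0.00559), where basal cells had 4.89 to 6.21 CPM against 17.3 and 26.7 CPM in luminal cells.

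Called in TEBs and not in ducts were also Adamts10, Adamts5, Adamts8 and Adamts12, all higher in basal cells. Adamts10, a fibrillin-binding member, had 35.0 to 58.0 CPM in basal TEB and 8.18 to 12.5 CPM in luminal TEB (2.18, SE 0.47, edgeR FDR 0.00457), but luminal duct replicate 3 had 39.9 CPM against 7.78 CPM in replicate 1. Adamts5, an aggrecanase, had 14.0 to 16.6 CPM in basal TEB against 0.495 to 1.14 CPM in luminal TEB. Called in ducts and not in TEBs were Adamts15, given above, and Adamts2 and Adamts17. Adamts2 and Adamts17 had no count in basal TEB replicate 1. No test of the difference between structures was passed by any of these genes or by Adamts6 (edgeR FDR of at least 0.16).

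ADAM and MMP genes fell on both sides. Adam10 was lower in basal cells by 1.75 in ducts (-1.75, SE 0.24, edgeR FDR 0.000224) and by 2.12 in TEBs (-2.12, SE 0.22, edgeR FDR 2.54e-05), and no basal library reached a luminal one. Adam15 was lower by 1.02 in ducts and 1.26 in TEBs (-1.02 and -1.26, edgeR FDR 0.00302 and 0.000307), and Adam9 was lower in TEBs (-1.05, SE 0.19, edgeR FDR 0.00119). Higher in basal cells were Adam23 (5.32 and 6.55) and Adam22 (4.93 and 5.77), both without protease activity, in ducts and TEBs (edgeR), and Adam19 in TEBs (6.75, SE 1.10, edgeR FDR 0.000681). Adam19 had 12.4 to 38.1 CPM in basal cells and 0.0762 to 0.173 CPM in luminal TEB, but 6.54 CPM in luminal duct replicate 3. The size of the 2 former differences in ducts rested on few counts in luminal duct, where replicates 1 and 3 held 40 and 0 counts of Adam22 and 1 and 24 counts of Adam23. Without luminal duct replicate 3 the value of Adam22 was 4.01, and without replicate 1 that of Adam23 was 4.20, or 4.04 without basal duct replicate 3, each still called. The other omission left 0 or 1 count in luminal duct.

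Adam12 had 1358 counts in basal duct and 0 in luminal duct, which made it at least 110-fold higher when 3 counts per library are taken as the limit of a 0. Adam28 had 4.73, 1.77 and 0.84 CPM in basal TEB and no count in luminal TEB, so that its level there rested mainly on basal TEB replicate 1. Adam1a was also called higher in basal TEB (edgeR FDR 0.0222), but 35.3% of its exonic bases in the GENCODE annotation overlap Mapkapk5 and Tmem116.

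Mmp15 was lower in basal cells by 3.04 in ducts (-3.04, SE 0.34, edgeR FDR 6.04e-05) and 2.29 in TEBs (-2.29, SE 0.32, edgeR FDR 2e-04). Its levels were 10.7 to 33.5 CPM in basal and 125.8 to 149.3 CPM in luminal libraries. Mmp25, a membrane MMP known from leukocytes, had 0 counts in basal duct and 3 in basal TEB, against 272 in luminal duct and 747 in luminal TEB. Luminal duct replicate 3 held 253 of the 272, and the level was 0.432 CPM in luminal duct replicate 1, 10.4 CPM in replicate 3 and 3.53 to 6.00 CPM in luminal TEB. The immune markers summed to 12.7 and 60.1 CPM in luminal duct replicates 1 and 3, 6.39 to 16.3 CPM in luminal TEB and 25.2 to 84.0 CPM in basal duct, and their part in the level of Mmp25 was not tested. Mmp2 was higher in basal cells by 5.18 in ducts (SE 1.03, edgeR FDR 0.00323) and 5.8 in TEBs (SE 0.90, edgeR FDR 0.000491). Leaving out luminal duct replicate 1 gave 4.24 in ducts, leaving out replicate 3 gave 8.36, and leaving out basal TEB replicate 2 gave 5.08 in TEBs. Mmp14 was higher by 0.76 (SE 0.25, edgeR FDR 0.0461) and 0.75 (SE 0.22, edgeR FDR 0.0241). Mmp17, a membrane MMP held by a lipid anchor, had 5.02 to 8.95 CPM in basal and at most 0.674 CPM in luminal cells, with 0 and 13 counts in luminal duct. Mmp11 was also called in ducts and Mmp23 in TEBs, both higher in basal cells, and Adamtsl2 in ducts (FDR 0.05 after rounding, edgeR) and Adamtsl1 in TEBs completed the calls.

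**Figure D4:**
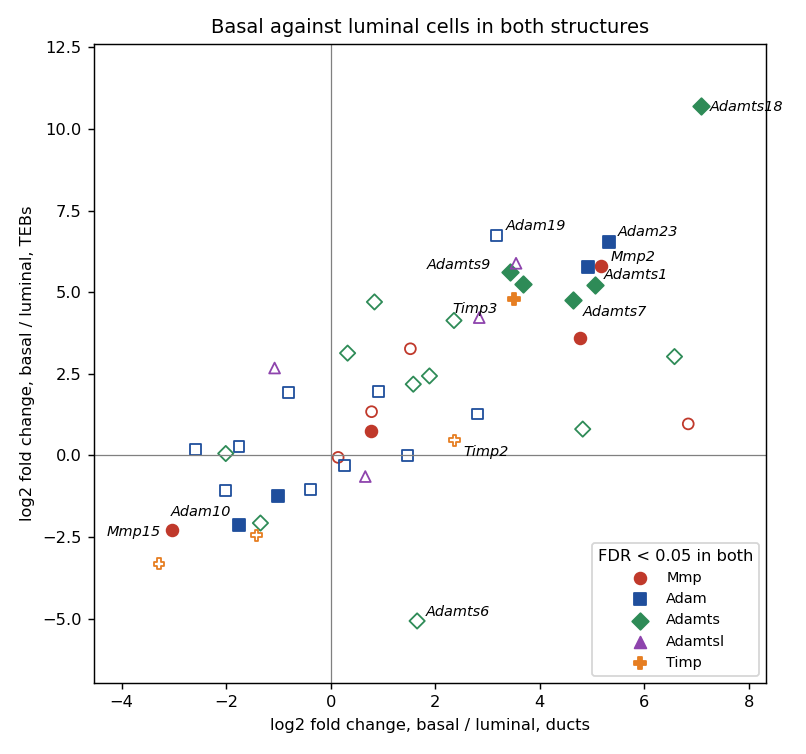
Log2 fold change of basal over luminal cells in ducts (x axis) and in TEBs (y axis) for the 45 tested members with more than 3 counts in every group. Filled symbols (14) had an FDR below 0.05 in both structures, and the signs were the same for 35 of the 45 genes. Adamts20 and Mmp25, also called in both, are left out by the limit on counts. The share of all genes with the same sign was not taken.

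Calls between the lineages that held whichever library was left out were those of Adam10, Adam15, Adam22, Adam23, Adamts1, Adamts4, Adamts7, Adamts9, Adamts18, Adamts20, Mmp2, Mmp15, Mmp25 and Timp3 in both structures, Timp2 and Adamts15 in ducts, and Adam9, Adam19, Adamts3, Adamts10 and Mmp23 in TEBs. The others were lost when a single library was left out, in some cases a library outside the comparison, at the edgeR FDR given. With a library outside the comparison left out, the fold change barely moved. For Mmp17 in ducts it was 4.777 with all libraries and 4.773 to 4.775 without a luminal TEB library. In ducts, omission of a luminal duct library left 1 library in that group.

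In ducts, the call of Mmp11 was lost, by its edgeR FDR, without basal duct replicate 1 (0.0525) or luminal duct replicate 1 (0.0826) or 3 (0.11). Adamts2 was not called without basal duct replicate 1 (0.0549), 2 (0.0503) or 3 (0.0617) or luminal duct replicate 1 (0.115) or 3 (0.0554). Without basal duct replicate 1 (0.0686) or 3 (0.141), basal TEB replicate 2 (0.0549) or 3 (0.0527), luminal duct replicate 1 (0.0646) or 3 (0.222) or luminal TEB replicate 1 (0.0674), 2 (0.0648) or 3 (0.0665), Mmp14 missed the threshold. That of Adamtsl2 was lost without basal duct replicate 1 (0.0664), 2 (0.0674) or 3 (0.0987), basal TEB replicate 2 (0.0616) or 3 (0.0648), luminal duct replicate 1 (0.155) or 3 (0.145) or luminal TEB replicate 1 (0.0732), 2 (0.0723) or 3 (0.082). Mmp17 was not called without basal duct replicate 1 (0.0673), 2 (0.073) or 3 (0.0701), basal TEB replicate 2 (0.058) or 3 (0.0577) or luminal TEB replicate 1 (0.058), 2 (0.0602) or 3 (0.0595). Without luminal duct replicate 3 (0.116), Adamts17 missed the threshold. That of Adam12 was lost without luminal duct replicate 1 (0.0791) or 3 (0.0702). In TEBs, the call of Adamts6 was lost, by its edgeR FDR, without luminal TEB replicate 2 (0.0603) or 3 (0.056). Without basal TEB replicate 1 (0.092) or luminal TEB replicate 1 (0.0815), 2 (0.0949) or 3 (0.0601), Mmp14 missed the threshold. That of Adam28 was lost without basal TEB replicate 1 (0.0607) or 2 (0.0506) or luminal TEB replicate 1 (0.0841), 2 (0.0855) or 3 (0.089). Adamts12 was not called without luminal TEB replicate 1 (0.0709) or 3 (0.059). Without basal TEB replicate 2 (0.0539) or 3 (0.0669) or luminal TEB replicate 1 (0.0817), 2 (0.108) or 3 (0.0931), Adamts5 missed the threshold. That of Adamtsl1 was lost without luminal TEB replicate 1 (0.0803), 2 (0.0629) or 3 (0.0607). Adam1a was not called without basal TEB replicate 3 (0.0787) or luminal TEB replicate 1 (0.0826), 2 (0.0523) or 3 (0.103). Without basal duct replicate 1 (0.0605), 2 (0.057) or 3 (0.0649), basal TEB replicate 2 (0.0813) or 3 (0.0795) or luminal TEB replicate 1 (0.148), 2 (0.133) or 3 (0.103), Mmp17 missed the threshold. That of Adamts8 was lost without basal TEB replicate 1 (0.088) or luminal TEB replicate 1 (0.0608), 2 (0.0988) or 3 (0.13).

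The promoters of 4 members with clear and differing patterns are shown, as the 250 bases before the transcription start in RefSeq on GRCm38.p6, 5′ to 3′ on the strand of the gene. Timp2 and Timp3 are the inhibitors that moved in opposite directions in luminal cells, Adamts18 was high in basal cells and Mmp15 in luminal cells. The RefSeq start used for Adamts18 lies inside the annotated span of the gene, whereas the other windows end at its edge. Capitals mark each match to the GC box (GGGCGG, on either strand), the Sp-factor element.
Timp2 (chr11:118355412-118355661, minus strand): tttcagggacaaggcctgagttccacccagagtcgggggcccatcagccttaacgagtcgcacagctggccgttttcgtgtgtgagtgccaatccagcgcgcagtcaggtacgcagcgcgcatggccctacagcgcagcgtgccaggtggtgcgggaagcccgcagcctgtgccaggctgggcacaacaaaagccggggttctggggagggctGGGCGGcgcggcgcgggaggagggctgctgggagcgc
Timp3 (chr10:86300162-86300411, plus strand): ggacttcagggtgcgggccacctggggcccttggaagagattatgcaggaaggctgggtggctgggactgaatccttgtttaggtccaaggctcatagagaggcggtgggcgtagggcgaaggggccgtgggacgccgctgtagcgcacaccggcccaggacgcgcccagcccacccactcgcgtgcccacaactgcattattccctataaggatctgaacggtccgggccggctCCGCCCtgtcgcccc
Adamts18 (chr8:113848840-113849089, minus strand): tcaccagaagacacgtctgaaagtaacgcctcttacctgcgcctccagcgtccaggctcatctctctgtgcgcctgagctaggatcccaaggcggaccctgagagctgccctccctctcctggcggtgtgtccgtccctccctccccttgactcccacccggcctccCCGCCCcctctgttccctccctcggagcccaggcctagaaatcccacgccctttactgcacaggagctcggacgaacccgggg
Mmp15 (chr8:95352046-95352295, plus strand): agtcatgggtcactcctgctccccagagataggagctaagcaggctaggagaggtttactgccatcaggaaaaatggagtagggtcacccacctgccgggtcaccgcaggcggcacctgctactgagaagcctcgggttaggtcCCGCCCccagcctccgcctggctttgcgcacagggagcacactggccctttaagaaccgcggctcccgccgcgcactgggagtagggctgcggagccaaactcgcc
Each of these windows held 1 GC box, and none held the AP-1 motif (TGANTCA), the TATA motif (TATAAA) or the TEAD motif (GGAATG) on either strand. The windows of Adamts20 and Mmp25, not shown, held 3 and 2 GC boxes and none of the other motifs. Of the 85 genes, 54 had a promoter in the table (59 promoters). A GC box was found in 40.7% of these against 32.7% of all 32851 promoters, AP-1 in 20.3% against 6.75%, TATA in 22% against 12.4%, and TEAD in 5.08% against 12.6%. Of the 12 genes called higher in basal cells in both structures, 8 had a promoter, of which 6 held a GC box, 1 the TATA motif and 0 the AP-1 or TEAD motif. All 4 of those called lower held a GC box and 0 held any of the other motifs.

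Genes that act with these proteases were read from lists of other inhibitors, proprotein convertases, the plasminogen system, partners of ADAM10 and ADAM17, other extracellular zinc proteases and proteoglycan substrates, 42 genes in all, of which 35 were tested. Most of the calls were basal over luminal, with 15 genes higher and 2 lower in basal cells in ducts, and 15 higher and 5 lower in TEBs by edgeR (12.6% and 9.71% of all genes in ducts, 13.2% and 11.8% in TEBs). Between TEBs and ducts, edgeR called 0 higher and 2 lower in basal cells (0.167% and 1.16% of all genes) and 0 higher and 1 lower in luminal cells (0.639% and 0.771%).

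Of the 4 proteoglycan substrates, 2 were called higher in basal cells in both structures by edgeR, and 0 lower. Of the 5 tested genes of the plasminogen system, 2 were higher in ducts, and 3 were higher and 1 lower in TEBs. The lower one was Plaur, the urokinase receptor, with 0, 3.35 and 2.24 CPM in basal TEB and 49.7, 51.1 and 42 CPM in luminal TEB (edgeR FDR 0.00374). Vcan, or versican, had 313.6 to 1958 CPM in basal and 2.70 to 8.02 CPM in luminal cells, a difference of 7.09 in ducts and 9.07 in TEBs (edgeR FDR 1.09e-05 and 5.4e-07). Plau, the urokinase that activates plasminogen, was higher by 5.11 and 3.95 (edgeR FDR 1.11e-06 and 4.89e-07), and Pappa, which cleaves IGF-binding proteins, by 8.14 and 8.32 (edgeR FDR 1.36e-05 and 1.65e-06). In ducts, the difference of Vcan was 7.74 without luminal duct replicate 3, and that of Pappa 8.75 without replicate 1, while in TEBs that of Pappa was 9.04 without luminal TEB replicate 1. The membrane-anchored inhibitor Reck was higher by 3.25 in ducts and 1.93 in TEBs (edgeR FDR 0.00558 and 0.0253), of which the latter was lost without basal TEB replicate 2 (0.0864) or luminal TEB replicate 1 (0.104), 2 (0.0667) or 3 (0.0513). Its value in ducts became 5.22 with luminal duct replicate 1 omitted, or 2.46 with replicate 3 omitted. Convertases were split, with Pcsk5 and Pcsk6 called higher in basal cells in both structures and Furin and Pcsk7 in neither.

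Partners of the ADAM sheddases differed between lineages as well. Tspan5, a tetraspanin that binds ADAM10, had 54.8 to 97.2 CPM in basal and 1.95 to 3.73 CPM in luminal cells (4.38 in ducts and 4.81 in TEBs, edgeR FDR 7.31e-06 and 6.69e-07). Tspan17, of the same tetraspanin group, and Rhbdf2, the inactive rhomboid that carries ADAM17 to the cell surface, were called lower in basal cells in both structures. Rhbdf2 was also lower in basal TEB than in basal duct, with 10.5 to 12.8 CPM against 22.5 to 34.1 CPM (-1.29, SE 0.21, edgeR FDR 0.0116). This call was lost without basal duct replicate 1 (0.0524) or basal TEB replicate 3 (0.0759). Anpep, an aminopeptidase, fell likewise from 64.5 to 80.7 CPM to 7.85 to 28.3 CPM (-1.95, SE 0.34, edgeR FDR 0.0194), which was lost without basal duct replicate 1 (0.0621) or 2 (0.0734) or basal TEB replicate 3 (0.104). In luminal cells, Mme, the neutral endopeptidase CD10 that is also used to mark basal cells, fell from 31.4 and 46.5 CPM in duct to 5.65 to 16.4 CPM in TEB (-1.91, SE 0.39, edgeR FDR 0.0378). It was not called without basal duct replicate 1 (0.0557) or 3 (0.0589), basal TEB replicate 3 (0.0626), luminal duct replicate 3 (0.157) or luminal TEB replicate 1 (0.0932) or 3 (0.154).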

How the data were processed

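The authors aligned 80 bp paired reads to mm10 with Rsubread and counted read pairs per Entrez gene, and the deposited values are whole counts, not normalized. Libraries were made from about 10 ng RNA with a kit that does not mark strand, and 1 luminal duct library was discarded for low cell numbers by the authors. Symbols came from a RefSeq table of GRCm38.p6 (25275 of 27179 identifiers). Low genes were removed by filterByExpr (a count of at least 10, a total of at least 15), and TMM-scaled counts were fitted with edgeR 4.0.16 in R 4.3.3, in 1 model over all 11 libraries, with Benjamini-Hochberg adjustment over 17370 genes. The common biological coefficient of variation was 0.704. The SE was obtained from the fold change and the root of its F statistic. Named are all members called in any comparison, the 4 TIMPs, the 4 members of each other family with the highest level per kilobase, and the 2 of each family with the largest non-overlapping TEB-duct difference in each cell type. Mapkapk5, Tmem116, Syn3 and A730049H05Rik were named for their overlap. Overlaps and shared words were taken on GENCODE exons and transcripts, whereas the counts used RefSeq exons. They are thus not shares of the counted bases. The members and lists were chosen with earlier results of these data known. For a 0, 3 counts per library were taken as the upper limit, for counting error alone. Alternatives used limma 3.58.1 and DESeq2 1.42.0. The fit was also run on simulated counts with large known changes in well-expressed genes. That run does not cover members with few counts or smaller changes.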

Additional observations from a re-analysis of the deposited data

Results flagged for a closer look

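The TEB-duct change differed between basal and luminal cells, by edgeR's test of that difference, for Timp2 and Adamts9. For Timp2 the difference, basal minus luminal, was -1.90 (SE 0.31, edgeR FDR 0.0253), since the TEB-duct change was -0.54 in basal and 1.36 in luminal cells. For Adamts9 it was 2.17 (SE 0.36, edgeR FDR 0.0273), with a change of 0.45 in basal and -1.72 in luminal cells. All 3 luminal TEB libraries lay above both luminal duct libraries for Timp2 and below both for Adamts9. Most basal markers were also called lower in luminal TEB than in luminal duct by edgeR. Their part in the Adamts9 result was not tested.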

How the results depend on the processing

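The basal-luminal counts stayed within 1.5 times under each of the 11 alternatives, at 20 to 31 in ducts and 24 to 35 in TEBs, and were 18 to 25 and 19 to 30 with 1 library left out. The TEB-duct counts did not. In basal cells the count of 1 became 0 with no composition normalization, 2 with no filter, 7 with the likelihood ratio test, 7 with DESeq2, 7 with limma voom and 4 without both libraries richest in mitochondrial counts, with 0 to 4 when 1 library was left out (4 without luminal duct replicate 1 or 3). In luminal cells the count of 3 became 0 with no composition normalization, 6 with no filter, 8 with the likelihood ratio test, 8 with DESeq2 and 5 without both mitochondria-rich libraries (3 higher, 2 lower), with 1 to 10 when 1 library was left out (10 without luminal duct replicate 1, 5 without basal TEB replicate 1). The difference between cell types went from 2 to 0, 5, 5, 1 and 5 with no composition normalization, the likelihood ratio test, DESeq2, limma voom and without both mitochondria-rich libraries, with 0 to 6 when 1 library was left out. Without composition normalization the median fold change of all genes was 0.42 in luminal and -0.16 in basal cells. Mmp2 between luminal TEB and duct turned to 0.007 without both mitochondria-rich libraries (FDR 1), where luminal duct is 1 library. The causes were not tested.

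Of 88 fold changes recomputed under 22 settings, 1734 values kept side and direction, 44 newly passed, 155 no longer passed and 1 turned. As a block, the replicate number gave 0 calls in basal cells, 3 in luminal cells, 23 in ducts, 25 in TEBs and 1 for the difference. It ended the calls of Adamtsl4 in basal cells (edgeR FDR 0.0632), Adamts9 for the difference (0.0584), Adamtsl2 (0.0853) and Mmp17 (0.0504) in ducts, Adam28 (0.0715), Adam1a (0.053) and Mmp17 (0.0526) in TEBs and Mme in luminal cells (0.0716). The shared numbers were not shown to pair libraries, as 4 of 15 correlations of deviations were over 0.1 (-0.068 to 0.163). In 19 of 30 comparisons of a library with another group its own number gave the highest value, a hint from the data and not from the design. Luminal duct rests on 2 libraries, and genes under about 1 CPM on few counts. Leaving out either luminal duct library left 1 in that group. The FDR of such a fit takes its spread from the other groups.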
